A study of Saccharomyces cerevisiae with 14 samples.

Results

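Expression of 9 genes of the Ras, protein kinase A (PKA) and TOR signalling pathways was described across 14 RNA-seq libraries of 5 budding yeast strains. The genes were RAS1, RAS2, CYR1, BCY1, TPK2, TPK3, PDE2, TOR1 and SCH9, chosen by name as nutrient signalling genes linked to lifespan, and all 9 were found among the 5886 genes of the expression table. The libraries came from MSB3Δ, NIT3Δ, HSP26Δ and TYS1 DAmP, each with 3 libraries labelled as biological replicates, and from the parent strain (WT) with 2. Every strain was of the BY4741 background (MATa his3Δ1 leu2Δ0 met15Δ0 ura3Δ0), a laboratory derivative of S288C. All were taken in log phase from YPD, a rich medium with 2% glucose, 2% peptone and 1% yeast extract, and no group received another treatment. In MSB3Δ (a GTPase-activating protein for Rab GTPases), NIT3Δ (a nitrilase-family amidase) and HSP26Δ (a small heat shock protein) the reading frame was replaced by a KanR or HisMX6 marker cassette. In TYS1 DAmP, KanR was inserted right after the reading frame of the essential tyrosyl-tRNA synthetase gene, which lowers the mRNA without removing it. The study asked how mutants with a changed replicative lifespan differ from WT in expression, and it compared each mutant with WT, so the 4 comparisons below share the same 2 WT libraries.

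In yeast grown on glucose, the small GTPases Ras1 and Ras2 in their GTP-bound form activate adenylate cyclase (Cyr1), which makes cAMP. cAMP binds the regulatory subunit Bcy1 and releases the catalytic subunits of PKA, among them those encoded by TPK2 and TPK3, and the high-affinity phosphodiesterase Pde2 degrades cAMP again. Tor1 is a catalytic subunit of TOR complex 1, which responds to nitrogen and amino acids, and the kinase Sch9 is one of its direct substrates. PKA, TOR complex 1 and Sch9 promote ribosome synthesis and growth and hold down stress genes, and lowered activity of this network is a known route to longer lifespan in yeast.

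Several of the genes have close paralogs, and the sequences that they share set how well reads can be assigned to one of them. The longest stretch of identical bases was 17 bases between the coding sequences of RAS1 and RAS2, 14 bases between TPK2 and TPK3 and 19 bases between TOR1 and TOR2. Stretches that are alike but not identical were not measured, so how well reads were assigned was not tested. The shared stretches of the Ras pair, which lies at coding bases 61 to 77 of both genes, and of the kinase and TOR pairs are shown to make the extent of the overlap visible (RefSeq R64, coding strand, 5′ to 3′).
RAS1 and RAS2: gttggtaaatctgcttt
TPK2 and TPK3: accaatgacgaacg
TOR1 and TOR2: attatgcatatttttcaaa

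The 300 bases from 250 before to 50 after the start of the coding sequence are given for 2 pairs of genes whose levels were most alike over the 14 libraries, CYR1 with TOR1 and BCY1 with TPK2. Sequences are from RefSeq R64 on the strand of the gene, and capitals mark AGGGG, the core of the stress response element bound by Msn2 and Msn4, the transcription factors that PKA keeps out of the nucleus.
CYR1 (chrX:424907-425206, plus strand): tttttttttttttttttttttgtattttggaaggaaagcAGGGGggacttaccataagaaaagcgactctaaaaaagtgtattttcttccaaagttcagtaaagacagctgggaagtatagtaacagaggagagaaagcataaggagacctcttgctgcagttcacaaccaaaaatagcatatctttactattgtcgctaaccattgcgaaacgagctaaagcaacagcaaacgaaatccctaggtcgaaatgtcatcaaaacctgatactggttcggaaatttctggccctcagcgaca
TOR1 (chrX:559166-559465, plus strand): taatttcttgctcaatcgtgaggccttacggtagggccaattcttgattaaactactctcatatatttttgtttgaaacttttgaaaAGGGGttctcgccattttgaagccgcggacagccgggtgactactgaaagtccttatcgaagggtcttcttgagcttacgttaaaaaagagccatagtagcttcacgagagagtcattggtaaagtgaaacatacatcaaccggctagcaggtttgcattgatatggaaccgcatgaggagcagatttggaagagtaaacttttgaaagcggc
BCY1 (chrIX:291620-291919, minus strand): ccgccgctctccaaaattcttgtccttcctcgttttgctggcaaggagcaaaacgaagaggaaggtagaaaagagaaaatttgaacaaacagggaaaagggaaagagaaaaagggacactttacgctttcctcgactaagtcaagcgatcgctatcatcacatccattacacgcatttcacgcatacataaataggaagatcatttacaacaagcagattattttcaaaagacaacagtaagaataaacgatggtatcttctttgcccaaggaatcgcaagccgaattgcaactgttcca
TPK2 (chrXVI:166006-166305, plus strand): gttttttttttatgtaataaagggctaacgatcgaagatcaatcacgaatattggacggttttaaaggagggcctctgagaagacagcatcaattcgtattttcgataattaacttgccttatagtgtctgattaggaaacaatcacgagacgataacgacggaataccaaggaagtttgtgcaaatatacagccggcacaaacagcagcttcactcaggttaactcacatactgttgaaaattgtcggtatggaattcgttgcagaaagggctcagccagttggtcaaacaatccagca
AGGGG was searched on both strands, where it reads CCCCT on the other. It was found 1 time each in the windows of CYR1, 211 bases before the start codon, of TOR1, 163 bases before it, and of SCH9, 169 bases before it and on the opposite strand. It was in 3 of 9 windows of the signalling genes and in 21.3% of the 5717 windows of all genes of the table that could be matched. The windows of RAS1, RAS2, BCY1, TPK2, TPK3 and PDE2 did not hold these letters.

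The depth was estimated from the whole-read steps in low FPKM values (fragments per kilobase of transcript, scaled to the mapped total). It was between 22.1 and 26.4 M fragments per library. The estimate assumes the coding lengths of R64. The 9 genes then rested on between 785 (RAS1) and 9039 (CYR1) fragments per library, and counting error alone was at most 3.57% of a value. The targeted genes were between 0 and 0.28 FPKM in the 3 deletion strains, and TYS1 was at 13.7% of its WT mean in TYS1 DAmP. The a-specific gene STE2 was read at 90.5 to 668 FPKM and the alpha-specific STE3 at 4.99 to 19.5 FPKM. The other pair was less clear: a-specific BAR1 ran from 3.61 to 175.5 FPKM and alpha-specific SAG1 from 10.4 to 27.01 FPKM. MET17 was at most at 0.03 FPKM, and HIS3, of which the his3Δ1 allele removes an internal stretch, at 122 to 231 FPKM. One library stood apart: ribosomal protein genes took 18.1% of the summed FPKM in NIT3Δ replicate 2, 30.1% in MSB3Δ replicate 1, between 38.6% and 46.0% in the other 10 mutant libraries, and 48.4% and 47.0% in WT. NIT3Δ replicate 2 was also the highest of the 14 libraries for 52.96% of the 5727 genes tested. For results that it moved most, values without it are given too.

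Levels per length differed up to 26.3 times between the genes in WT. RAS2 had the highest mean, 231 FPKM ± 13.9 (SD, n = 2), which was above 85.6% of all genes tested, followed by BCY1 with 133 FPKM ± 11.2. RAS1, at 74.7 FPKM ± 1.82, and PDE2, at 74.4 FPKM ± 0.82, did not differ beyond their spread. TPK2 followed with 52.4 FPKM ± 4.57, TPK3 with 43.2 FPKM ± 0.71 and SCH9 with 38.7 FPKM ± 5.85, the last of which overlapped TPK3 in 1 of its 2 libraries. The large signalling proteins were lowest, with CYR1 at 16.3 FPKM ± 0.18 and TOR1 at 8.77 FPKM ± 0.51. Over the 14 libraries the range of log2(FPKM + 1) was widest for CYR1 (1.94), TOR1 (1.70), BCY1 (1.45) and TPK2 (1.37) and narrowest for TPK3 (0.55), where the median over all genes tested was 1.15. The first 4 of these ranges rested on NIT3Δ replicate 2. Without it they were 0.85, 0.81, 0.86 and 1.02, beside a median of 0.91 over all genes tested, and the widest were those of PDE2 (1.28) and RAS1 (1.20), while TPK3 stayed narrowest (0.54). Only 5.73% of genes had a smaller range than TPK3.

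**Figure D1:**
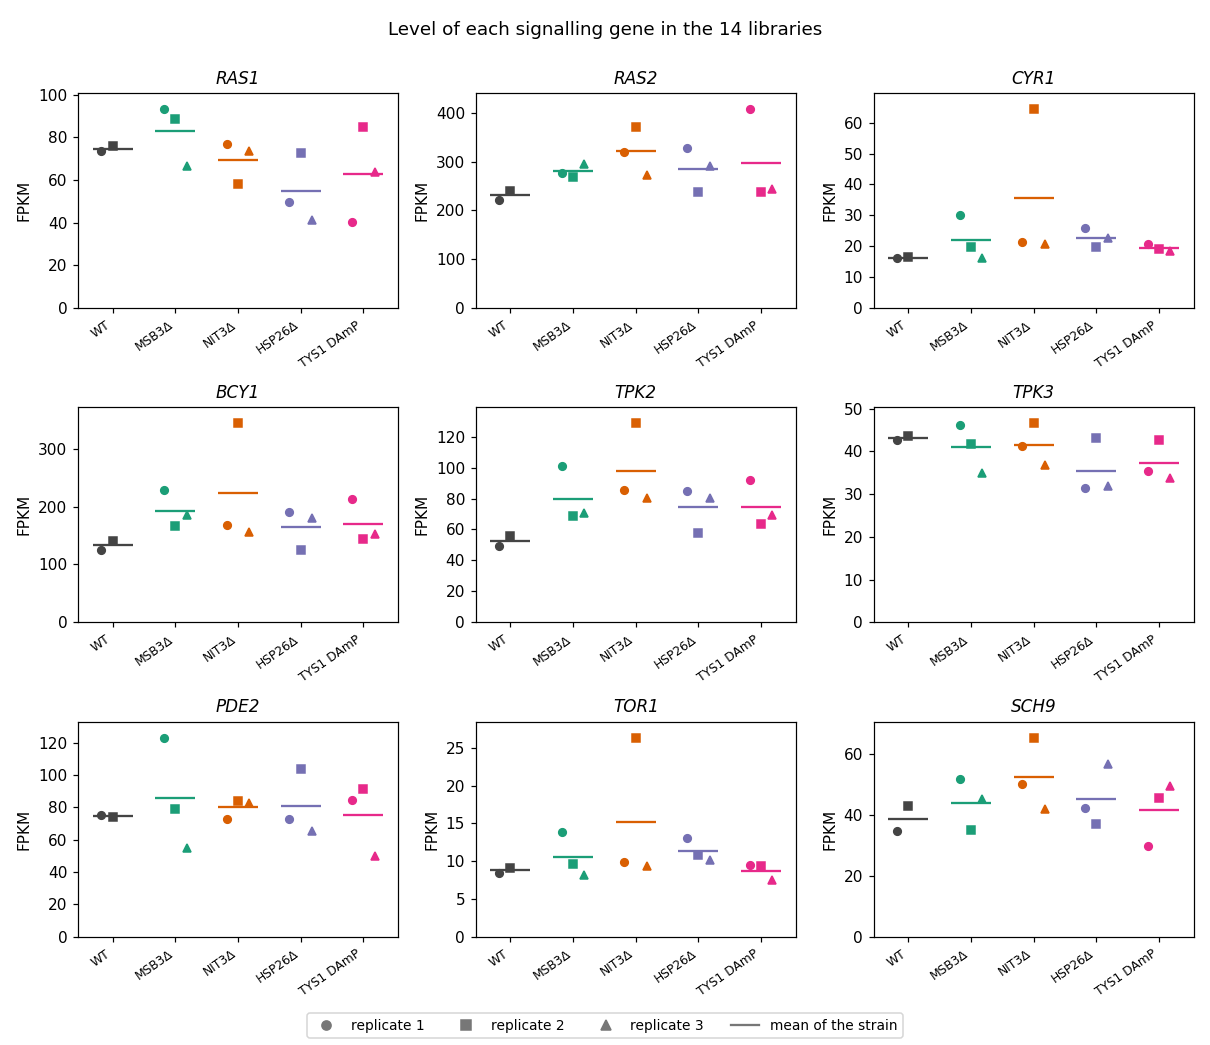
FPKM (y axis, starting at 0) of each of the 9 genes in the 14 libraries, by strain on the x axis, where symbols are replicates and horizontal lines are strain means. NIT3Δ replicate 2 is the highest point for CYR1 (64.6), BCY1 (345), TPK2 (129), TOR1 (26.4), SCH9 (65.4) and TPK3 (46.6), and TPK2 is above both WT points in all 12 mutant libraries.

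Each mutant was compared with WT in a limma fit on log2(FPKM + 1), with a call at a fold change over 1.5 or under 0.7 and an unadjusted p under 0.05, the thresholds of the study. Of the 36 comparisons of a gene in a mutant with WT, 1 passed: TPK2 was higher in NIT3Δ. In NIT3Δ 4.82% of all genes tested were called, 4.31% higher and 0.506% lower. None of the 9 genes was called in MSB3Δ (4.49% of all genes, 3.93% higher and 0.559% lower), in HSP26Δ (8.08%, 5.67% higher and 2.41% lower) or in TYS1 DAmP (4.98%, 3.34% higher and 1.64% lower). At an unadjusted p under 0.05 without the fold threshold, limma gave 2 of the genes in MSB3Δ (BCY1 and TPK2), 2 in HSP26Δ (CYR1 and TPK2), TPK2 alone in NIT3Δ and 0 in TYS1 DAmP. After Benjamini-Hochberg adjustment over the 5727 genes none of the 36 passed, where 0.0175% of all genes did in MSB3Δ and the same share in NIT3Δ, 0.0873% in TYS1 DAmP and 0.0349% in HSP26Δ. The smallest adjusted p among the 36 limma results was 0.28, for CYR1 in HSP26Δ.

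The fold changes leaned upward with those of all genes. Over the 9 genes the log2 fold change had a median of 0.46 in NIT3Δ (0.28 over all genes tested), or 0.25 without its replicate 2 (0.11), 0.29 in HSP26Δ (0.08), 0.21 in MSB3Δ (0.18) and 0.08 in TYS1 DAmP (0.07). Of the 36 log2 fold changes, 27 were above 0. The number above 0 was 8 of 9 in MSB3Δ, 5 of 9 in TYS1 DAmP and 7 of 9 in each of the other 2 mutants. Of the 5727 genes tested, 4302 were above 0 in MSB3Δ, 3430 in TYS1 DAmP, 4385 in NIT3Δ and 3416 in HSP26Δ. Median-ratio scaling of the libraries moved the median over all genes to within 0.01 of 0 in each mutant, and the share of higher among all called genes went from 89.5% to 62.1% for NIT3Δ, from 87.5% to 57.1% for MSB3Δ and from 70.2% to 49.0% for HSP26Δ. Under that scaling TPK2 in NIT3Δ was no longer called (0.57), RAS1 was called lower in HSP26Δ (-0.58), and RAS1, PDE2 and SCH9 in MSB3Δ and PDE2 in NIT3Δ and HSP26Δ changed sign.

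**Figure D2:**
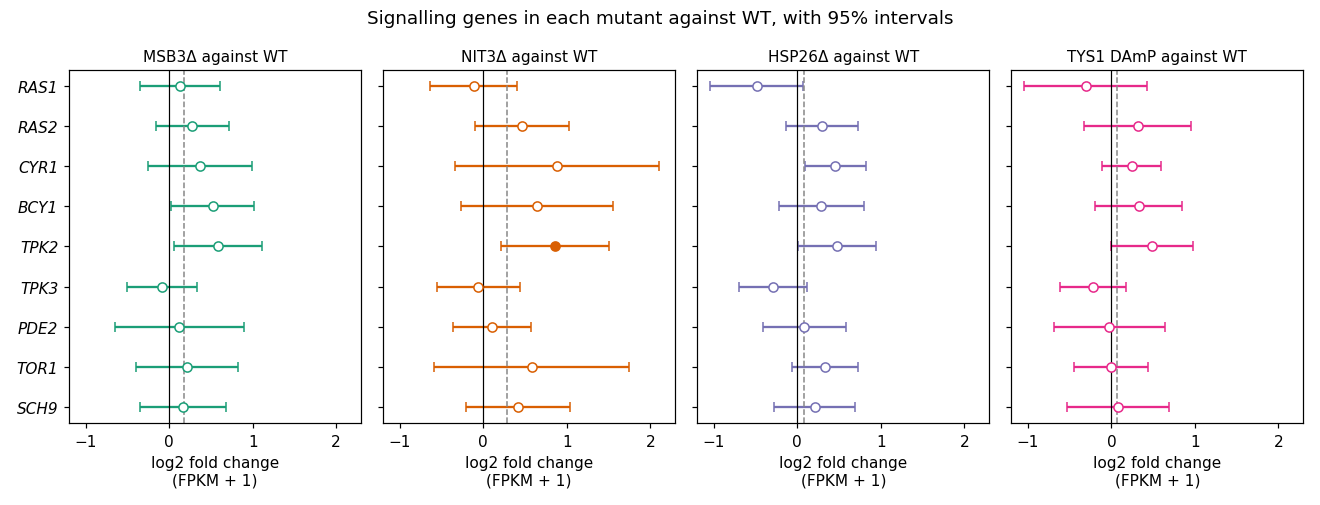
Log2 fold change in FPKM + 1 (x axis) of each gene (y axis) in each mutant against WT, 1 panel a mutant, with 95% intervals of the limma fit (3 against 2 libraries). The filled point is the 1 called gene (TPK2 in NIT3Δ, 0.86), open points did not pass, the solid line is 0 and the dashed line is the median of all genes tested (0.18, 0.28, 0.08 and 0.07 from left to right).

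Neither Ras gene was called in any mutant against WT, and their levels were inversely related over the libraries. RAS1 was at 73.4 and 75.98 FPKM in WT replicates 1 and 2. It was at 93.3, 88.3 and 66.4 in MSB3Δ replicates 1 to 3 and at 76.8, 57.9 and 73.3 in those of NIT3Δ, so libraries of both mutants lay on either side of the WT values. In HSP26Δ RAS1 was at 49.7, 72.7 and 41.3 FPKM, all 3 below both WT libraries, as were 13.2% of all genes tested, and the log2 fold change of -0.49 (SE 0.24) did not pass. Without HSP26Δ replicate 2, the highest of the 3, it passed at -0.71. In TYS1 DAmP the values were 40.03, 84.8 and 63.7 FPKM, from the lowest of the 14 libraries to one above WT.

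RAS2 was at 221 and 241 FPKM in WT, the lowest strain mean of the 5. MSB3Δ had 276, 269 and 296, NIT3Δ had 320.0, 370.1 and 273 and HSP26Δ had 328, 238 and 291 FPKM. In TYS1 DAmP the values were 409, 238 and 244, with the highest of all libraries beside 1 within and 1 just above the WT range. All 3 libraries of MSB3Δ and of NIT3Δ were above both WT libraries, as were 26.1% and 38.6% of all genes tested, and the log2 fold changes of 0.28 (SE 0.18) and 0.46 (SE 0.24) did not pass. Over the 14 libraries RAS1 and RAS2 had a Pearson r of -0.62 on log2(FPKM + 1), the lowest of the 36 pairs among the 9 genes. These libraries share the same table and their values sum to similar totals, so the correlation is a description.

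The ratio of RAS2 to RAS1 within a library was 3.01 and 3.17 in WT. MSB3Δ lay closest to that, with 2.96, 3.04 and 4.46, and the values were 10.2, 2.81 and 3.82 in TYS1 DAmP, 6.60, 3.27 and 7.04 in HSP26Δ and 4.17, 6.39 and 3.72 in NIT3Δ. The ratio was above both WT libraries in 9 of 12 mutant libraries, and it varied up to 3.63 times among them, with the largest spread inside TYS1 DAmP (mean 5.61 ± 4.01, SD, n = 3). The ratios were computed after the values had been seen and carry no test.

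For cAMP synthesis, CYR1 was at 16.1 and 16.4 FPKM in WT, and its range over the 14 libraries was the widest only with NIT3Δ replicate 2. It was at 21.3, 64.5 and 20.8 FPKM in NIT3Δ, where replicate 2 was 3.06 times the mean of the other 2. The values were 20.7, 19.1 and 18.4 in TYS1 DAmP, 25.9, 19.7 and 22.6 in HSP26Δ and 29.96, 19.8 and 16.1 in MSB3Δ. All but 1 of the 12 mutant libraries were above both WT libraries, and the exception, MSB3Δ replicate 3, lay between them. All 3 libraries lay above both WT libraries in NIT3Δ, as did 38.6% of all genes, in HSP26Δ, as did 27.6%, and in TYS1 DAmP, as did 20.4%. The log2 fold change was 0.88 (SE 0.51) in NIT3Δ and 0.36 without its replicate 2, 0.45 (SE 0.16) in HSP26Δ with an unadjusted p of 0.022 and an adjusted p of 0.28 in the limma fit, 0.37 (SE 0.26) in MSB3Δ and 0.24 (SE 0.15) in TYS1 DAmP. None of these passed, the one in HSP26Δ because the fold change was 1.37, under the threshold.

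PDE2, which breaks down cAMP, showed no common direction. It was at 74.99 and 73.8 FPKM in WT, with hardly any spread, and at 84.8, 91.3 and 50.03 in TYS1 DAmP, 72.6, 104 and 65.5 in HSP26Δ, 73.03, 83.9 and 82.8 in NIT3Δ and 123, 78.9 and 54.8 in MSB3Δ. MSB3Δ alone covered a 2.25-fold span around the WT values. The log2 fold changes lay between -0.03 and 0.12, with 95% intervals that spanned -0.65 to 0.90 in MSB3Δ and -0.69 to 0.64 in TYS1 DAmP, so changes of that size cannot be told from none with these libraries.

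The PKA subunits held the only call. TPK2, one of the catalytic subunits and the one tied to filamentous growth, was at 49.2 and 55.7 FPKM in WT. It was at 85.2, 129 and 80.1 in NIT3Δ, 91.8, 63.3 and 69.02 in TYS1 DAmP, 84.99, 57.7 and 80.1 in HSP26Δ and 101, 68.6 and 70.4 in MSB3Δ. All 12 mutant libraries were above both WT libraries, which held for 450 of the 5727 genes tested (7.86%), and the same 2 WT libraries stand in each of the 4 comparisons. In NIT3Δ the mean was 98.01 FPKM ± 26.7 (SD, n = 3) against 52.4 FPKM ± 4.57 (n = 2), a log2 fold change of 0.86 (SE 0.27, 95% interval 0.22 to 1.503) with an unadjusted p of 0.016 and a Benjamini-Hochberg adjusted p of 0.563 in the limma fit. The call held without NIT3Δ replicate 2 (0.65), and leaving out either WT library ended it (0.77 and 0.95). The log2 fold changes in the other strains were 0.58 (SE 0.22) in MSB3Δ, 0.48 (SE 0.20) in HSP26Δ and 0.49 (SE 0.20) in TYS1 DAmP, and they did not pass. TPK2 passed there when MSB3Δ replicate 2 (0.68) or 3 (0.66), HSP26Δ replicate 2 (0.65) or TYS1 DAmP replicate 2 (0.60) was left out. Each of these libraries was below its strain mean, so leaving it out raises the fold change by itself.

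BCY1, the regulatory subunit, followed TPK2 (Pearson r 0.93 over the 14 libraries, 0.91 without NIT3Δ replicate 2). Its values were 125 and 141 FPKM in WT, 214, 144 and 152 in TYS1 DAmP, 190.5, 126 and 180.3 in HSP26Δ, 168, 345 and 157 in NIT3Δ and 228, 166 and 185 in MSB3Δ. All but 1 of the mutant libraries were above WT, and the exception, HSP26Δ replicate 2, lay between the WT libraries. In MSB3Δ, NIT3Δ and TYS1 DAmP all 3 libraries were above both WT libraries, as were 26.1%, 38.6% and 20.4% of all genes tested. The log2 fold change was 0.52 (SE 0.21, unadjusted p 0.042, limma adjusted p 0.652) in MSB3Δ. There the fold change of 1.44 missed the threshold and passed it without replicate 2 (0.62), the lowest of the 3 libraries. In NIT3Δ the log2 fold change was 0.64 (SE 0.38), and 0.28 without its replicate 2, which was 2.12 times the mean of the other 2.

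TPK3, another catalytic subunit, had the narrowest range. It was at 42.7 and 43.7 FPKM in WT, 35.3, 42.6 and 33.8 in TYS1 DAmP, 31.5, 43.00 and 31.8 in HSP26Δ, 41.3, 46.6 and 36.8 in NIT3Δ and 46.3, 41.8 and 35.03 in MSB3Δ. The log2 fold change was -0.29 (SE 0.17) in HSP26Δ, -0.22 (SE 0.16) in TYS1 DAmP, -0.08 (SE 0.18) in MSB3Δ and -0.06 (SE 0.21) in NIT3Δ, and none passed. All 3 TYS1 DAmP libraries were below both WT libraries, as were 12.4% of all genes tested.

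The ratio of TPK2 to TPK3 was 1.15 and 1.27 in WT and between 1.34 and 2.76 in the mutants, above both WT libraries in all 12. The ratio compares levels per length within a library and, like the Ras ratio, carries no test.

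**Figure D3:**
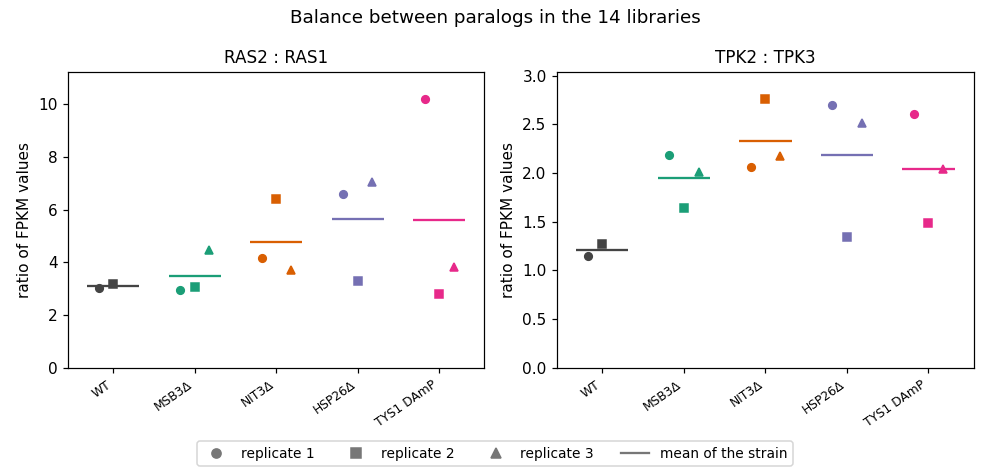
Ratio of FPKM values (y axis, starting at 0) in each of the 14 libraries by strain, for RAS2 to RAS1 and TPK2 to TPK3, where symbols are replicates and lines are strain means. TPK2 to TPK3 is above the WT points (1.15 and 1.27) in all 12 mutant libraries, and RAS2 to RAS1 reaches 10.2 in TYS1 DAmP replicate 1.

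TOR1 had the lowest level of the 9 genes. It was at 8.41 and 9.13 FPKM in WT, 9.47, 9.32 and 7.45 in TYS1 DAmP, 13.04, 10.9 and 10.2 in HSP26Δ, 9.94, 26.4 and 9.37 in NIT3Δ and 13.8, 9.63 and 8.18 in MSB3Δ. NIT3Δ replicate 2 was 2.73 times the mean of the other 2 NIT3Δ libraries, and the log2 fold change of 0.58 (SE 0.49) in NIT3Δ was 0.13 without it. The log2 fold change was 0.33 (SE 0.17) in HSP26Δ, 0.21 (SE 0.26) in MSB3Δ and -0.01 (SE 0.18) in TYS1 DAmP, and none passed. All 3 libraries were above both WT libraries in HSP26Δ and in NIT3Δ, as were 27.6% and 38.6% of all genes tested.

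SCH9, the TOR complex 1 substrate, was at 34.5 and 42.8 FPKM in WT, 29.7, 45.4 and 49.6 in TYS1 DAmP, 42.3, 36.97 and 56.5 in HSP26Δ, 50.2, 65.4 and 41.9 in NIT3Δ and 51.9, 34.9 and 45.2 in MSB3Δ. Every mutant overlapped the WT range, and the largest log2 fold change was 0.42 (SE 0.26) in NIT3Δ, with 0.25 without its replicate 2. The TYS1 DAmP value of 0.08 (SE 0.25) changed sign when WT replicate 1 or TYS1 DAmP replicate 2 or 3 was left out.

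The order of the strain means placed NIT3Δ first for 6 of the 9 genes (RAS2, CYR1, BCY1, TPK2, TOR1 and SCH9), or for 2 (TPK2 and SCH9) without NIT3Δ replicate 2, and WT last for 6 (RAS2, CYR1, BCY1, TPK2, PDE2 and SCH9). Neighbours in that order mostly overlapped. Ranges of neighbouring strains were separate for 1 of the 4 neighbouring pairs in RAS2, CYR1 and TPK2 and for none in the other 6 genes. In each case the pair was WT with the strain above it: MSB3Δ for RAS2, TYS1 DAmP for CYR1 and HSP26Δ for TPK2. All 3 libraries of these mutants were above both WT libraries in 26.1%, 20.4% and 27.6% of all genes tested. The limma F test over the 5 strains called 0 of the 9 genes at an adjusted p under 0.05, where 0.157% of all genes passed, and 0 at an unadjusted p under 0.05, where 5.06% did. The smallest p was that of TPK2 (unadjusted 0.076, adjusted 0.775).

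Between mutants, 1 of 54 comparisons was called. RAS1 was higher in MSB3Δ than in HSP26Δ, with a log2 difference of 0.62 (SE 0.27, 95% interval 0.04 to 1.20, unadjusted p 0.039, limma adjusted p 0.757), where 4.4% of all genes were called. That call was lost without any 1 of MSB3Δ replicates 1 and 2 and HSP26Δ replicates 1 and 3, and under median-ratio scaling. None of the 9 genes was called between MSB3Δ and NIT3Δ (0.698% of all genes), MSB3Δ and TYS1 DAmP (2.55%), NIT3Δ and HSP26Δ (8.49%), NIT3Δ and TYS1 DAmP (5.06%) or HSP26Δ and TYS1 DAmP (1.57%), and no other of the 54 reached an unadjusted p under 0.05. With NIT3Δ replicate 1 or 3 left out, 2 genes were called between NIT3Δ and TYS1 DAmP, and with TYS1 DAmP replicate 2 left out, 1 was called between MSB3Δ and TYS1 DAmP.

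The 3 libraries with the lowest ribosomal protein shares had the highest medians over the 9 genes, as log2 difference from the WT mean. These were 0.75 in NIT3Δ replicate 2 (share 18.1%), 0.60 in MSB3Δ replicate 1 (30.1%) and 0.50 in HSP26Δ replicate 1 (38.6%). Over all genes tested the same median was 0.63, 0.41 and 0.12 in these libraries. At higher shares the medians were lower, though not in strict order of the share. They were 0.19 in TYS1 DAmP replicate 1 (40.0%), 0.34 in NIT3Δ replicate 1 (41.5%) and -0.01 in MSB3Δ replicate 3 (43.0%). In HSP26Δ replicate 2 (45.5%) and TYS1 DAmP replicate 3 (46.0%) they were 0.04 and 0.08. In NIT3Δ replicate 2 the difference from WT also grew with coding length, with a median of 0.55 over the 2083 genes under 1000 bases and 0.88 over the 231 genes of 4000 bases or more. CYR1, of 6081 bases, and TOR1, of 7413 bases, stood at 1.93 and 1.49 there, while RAS1, of 930 bases, stood at -0.36. TOR2, whose coding length is close to that of TOR1, was 1.60 times the mean of the other NIT3Δ libraries where TOR1 was 2.73 times. Whether the make-up of these libraries had a part in the values of the signalling genes was not tested. With the trend on coding length removed from each library, TPK2 stayed the only call in NIT3Δ (0.62), and CYR1 and TOR1 there were at 0.46 and 0.14.

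**Figure D4:**
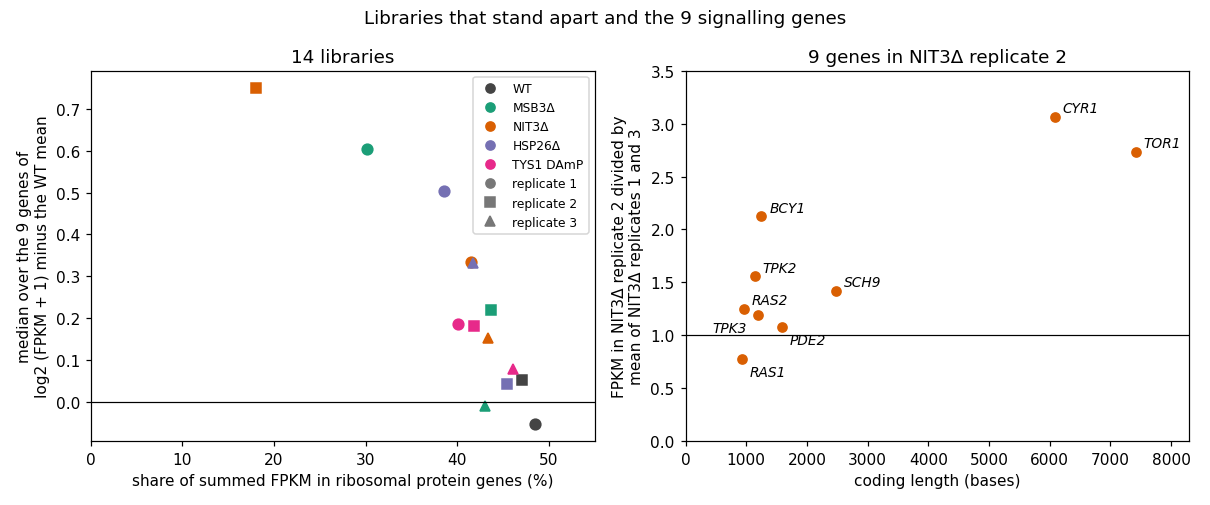
Left, the share of summed FPKM in ribosomal protein genes (x axis, percent) against the median over the 9 genes of log2(FPKM + 1) minus the WT mean (y axis) in each of the 14 libraries; right, coding length (x axis, bases) against the FPKM in NIT3Δ replicate 2 divided by the mean of NIT3Δ replicates 1 and 3 (y axis). NIT3Δ replicate 2 lies at 18.1% and 0.75, and the 2 longest genes, CYR1 and TOR1, have the largest ratios (3.06 and 2.73) while RAS1 has the lowest (0.77).

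The paralogs and direct partners of these genes were read the same way. PDE1, the low-affinity phosphodiesterase, rose in HSP26Δ (0.67, SE 0.17), from 84.6 and 93.2 FPKM in WT to 153, 122 and 152. It was at 0.45, 0.83 and 0.50 without passing in MSB3Δ, NIT3Δ and TYS1 DAmP, and at 0.44 in NIT3Δ without its replicate 2. TOR2, the other TOR kinase, IRA1 and IRA2, the GTPase-activating proteins that switch Ras off, and CDC25, the exchange factor that switches it on, did not pass in any mutant. Their largest log2 fold changes were 0.36 for TOR2, 0.57 for IRA1 and 0.61 for CDC25, all in NIT3Δ (0.15, 0.15 and 0.34 without its replicate 2), and 0.53 for IRA2 in HSP26Δ.

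Of a list of 66 further genes of the pathways in 9 role groups, 65 were tested and SDC25 was not analysed here. NIT3Δ had 4 higher and 1 lower, a share of 7.69% beside 4.82% of all genes, HSP26Δ had 6 and 1 (10.8% beside 8.08%), MSB3Δ had 3 and 0 (4.62% beside 4.49%) and TYS1 DAmP had 3 and 0 (4.62% beside 4.98%). Its median log2 fold change was 0.42 in NIT3Δ (0.22 without replicate 2), 0.25 in MSB3Δ, 0.24 in HSP26Δ and 0.17 in TYS1 DAmP, and under median-ratio scaling 0.14, 0.07, 0.15 and 0.09. Of the 18 calls, 14 were in the groups of the Ras cycle (6 genes tested), of cAMP and PKA (3), and of PKA and Sch9 effectors (8). A gene counts again in each mutant, as TFS1 did in all 4, and the comparisons share the same WT libraries. None of the 18 was among the 15 genes upstream of TOR complex 1, the 11 downstream of it or the 9 of TOR complex 2. Over all genes the share called was 4.49% to 8.08%.

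Here rose and fell mean a call at the unadjusted p, and the smallest adjusted p in the limma fits over the list was 0.196, in HSP26Δ. TFS1, an inhibitor of carboxypeptidase Y that also binds Ira2, rose in all 4 mutants, with log2 fold changes of 1.57 (SE 0.61) in NIT3Δ, 1.15 (SE 0.24) in MSB3Δ, 1.04 (SE 0.39) in TYS1 DAmP and 0.73 (SE 0.23) in HSP26Δ. Its values were 181 and 171 FPKM in WT and between 241 and 1284 FPKM in the mutants, with the highest in NIT3Δ replicate 2, without which the NIT3Δ value was 0.92 and still called. YAK1, a kinase that opposes PKA in growth control, rose in MSB3Δ (0.76, SE 0.25) and HSP26Δ (0.75, SE 0.27), from 51.3 and 42.7 FPKM in WT to 108, 74.5 and 63.99 and 115, 61.8 and 71.2. In NIT3Δ it was at 1.03 (SE 0.51) without passing, with 70.8, 205 and 62.5 FPKM in replicates 1, 2 and 3. All 12 mutant libraries were above both WT libraries for YAK1, as for 7.86% of all genes tested. MSN4, one of the stress transcription factors held down by PKA, rose in NIT3Δ (1.13, SE 0.33), from 35.3 and 39.04 FPKM to 68.6, 127 and 65.04. It too was above both WT libraries in all 12 mutant libraries.

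GIS1, a transcription factor that acts downstream of the kinase Rim15, rose in NIT3Δ (0.80, SE 0.29) and TYS1 DAmP (0.59, SE 0.22). PKH1, a kinase that phosphorylates the activation loop of AGC kinases, rose in TYS1 DAmP (0.63, SE 0.23), with 33.8, 21.5 and 21.4 FPKM beside 15.5 and 16.2 in WT. All 12 mutant libraries were above both WT libraries for PKH1, as for 7.86% of all genes tested. RGS2, which speeds GTP hydrolysis by the glucose-sensing G protein Gpa2, fell in HSP26Δ (-0.73, SE 0.28), from 52.6 and 31.8 FPKM to 27.02, 30.1 and 17.5. In NIT3Δ RGS2 was at -0.75 (SE 0.34) without passing. All 3 NIT3Δ libraries were below both WT libraries, as for 548 of the 5727 genes tested. The lower call in NIT3Δ was LST8, a subunit of both TOR complexes (-0.77, SE 0.25), with 182, 199.7 and 228 FPKM beside 405 and 298 in WT, and it is named after its values were seen, as are 2 further higher calls in HSP26Δ, GIS1 (0.68, SE 0.23) and GPR1 (0.59, SE 0.16), the glucose receptor.

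**Figure D5:**
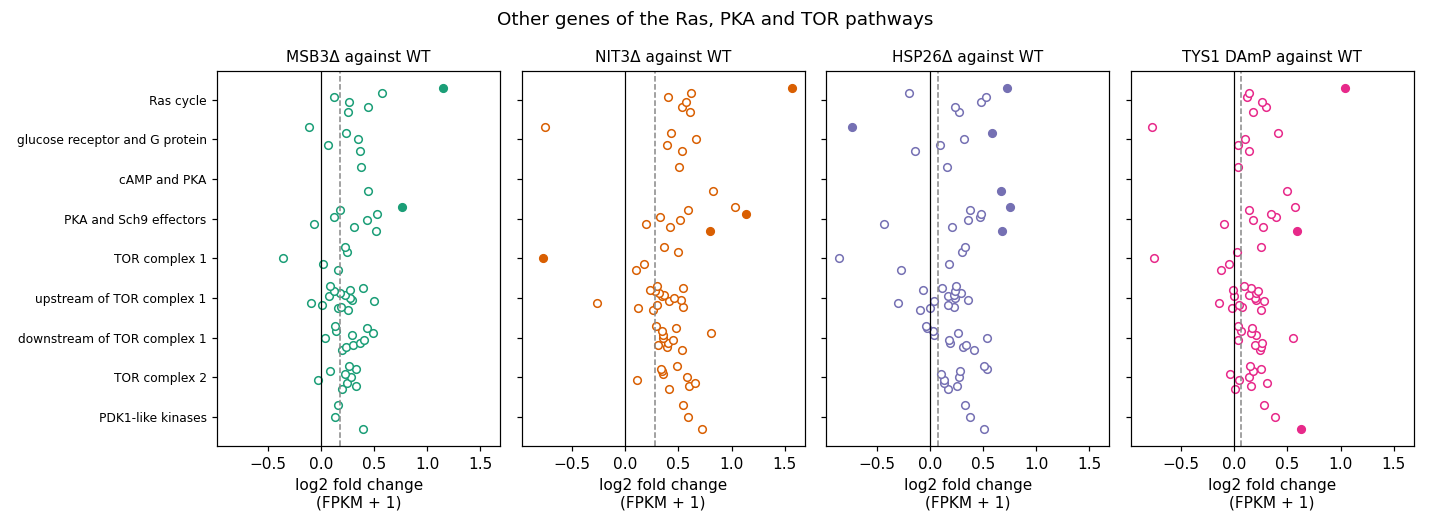
Log2 fold change in FPKM + 1 (x axis, the same in all panels) of 64 of the 65 further pathway genes, by role group (y axis), 1 panel a mutant. Filled points passed the call (2, 4, 6 and 3 from left to right), open points did not, the solid line is 0 and the dashed line is the median of all genes tested.

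The counts of called pathway genes depended on single libraries. The share of all genes called with the same libraries left out is not given here, so the counts were not set beside it. For MSB3Δ the count was 12 when its replicate 3 was left out and 1 when its replicate 1 or WT replicate 2 was. For NIT3Δ it was 1 when WT replicate 1 and 3 when WT replicate 2 was left out. For HSP26Δ leaving out its replicate 2 gave 15, its replicate 1 gave 2 and either WT library gave 3. For TYS1 DAmP leaving out its replicate 3 gave 6, its replicate 1 or WT replicate 2 gave 1 and WT replicate 1 gave 0.

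Transcripts that lie downstream of the pathways were read as lists chosen by known function, with earlier results of these data known. Of the Msn2 and Msn4 list, the study had already reported TPS1, TPS2 and TSL1 as raised in MSB3Δ, so the counts are a description. Of 20 targets of Msn2 and Msn4, which PKA holds down, 16 rose in MSB3Δ, 13 in NIT3Δ, 11 in TYS1 DAmP and, with HSP26 itself left out, 9 of 19 in HSP26Δ, and 0 fell. Higher calls among all genes made up 3.93%, 4.31%, 3.34% and 5.67%. The targets had median log2 fold changes of 0.93, 1.36, 0.80 and 0.74 in these strains. Of 16 nitrogen-catabolite genes, which TOR complex 1 holds down, 1, 1, 2 and 4 rose in the same order and 0 fell, with medians of 0.46, 0.63, 0.54 and 0.44. Of 136 ribosomal protein genes, which PKA and TOR complex 1 promote, 0 rose, and 6, 0, 8 and 12 fell, with medians of -0.40, -0.75, -0.22 and -0.31 and lower calls of 0.559%, 0.506%, 1.64% and 2.41% among all genes. The counts depended on the scaling. Under median-ratio scaling 1, 1, 5 and 25 ribosomal protein genes fell, beside 111, 89, 116 and 257 of the 5727 genes tested. Of the nitrogen-catabolite genes 1, 0, 1 and 3 rose, and of 19 Msn2 and Msn4 targets without HSP26 13, 11, 10 and 9. Over all genes 148, 146, 170 and 247 rose. With the trend on coding length removed, 0, 0, 4 and 9 ribosomal protein genes fell, beside 95, 66, 103 and 180 of all genes. Again 1, 0, 1 and 3 nitrogen-catabolite genes rose, and 14, 11, 10 and 9 targets, beside 157, 158, 173 and 252 of all genes. The sign of all 12 medians was the same under both. Within NIT3Δ the median of the Msn2 and Msn4 targets over WT was 0.87, 2.26 and 0.85 in replicates 1 to 3, so replicate 2 was the highest there too. The median of the nitrogen-catabolite genes was 0.26, 1.38 and 0.15 in the same libraries. Without replicate 2 the NIT3Δ medians were 0.96 for the Msn2 and Msn4 targets, 0.23 for the nitrogen-catabolite genes and -0.26 for the ribosomal protein genes, with 17 and 1 higher and 3 lower calls. Among all 5727 genes 252 were then called higher and 60 lower.

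Among all genes tested, the 3 whose log2(FPKM + 1) was most like that of CYR1 over the 14 libraries were VPS13 (Pearson r 0.99), FMP27 (0.98) and DCP2 (0.98), and all 3 were highest in NIT3Δ replicate 2. Without that library the r values were 0.95, 0.95 and 0.94. For TPK3 they were BRE2 (0.92), RNA14 (0.91) and TAD1 (0.90), with 0.91, 0.92 and 0.90 without NIT3Δ replicate 2. Among the 9 genes the closest pair was CYR1 and TOR1, with r 0.97 over the 14 libraries. Without NIT3Δ replicate 2 it was 0.88, below that of BCY1 and TPK2. All of these points share the table and its normalization to the library total, and likeness in level is all that the r values describe.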

How the data were processed

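RNA was sequenced on the BGISEQ-500 platform, and the values used here are FPKM as deposited, 1 for each gene in each library. The submitters' processing notes name HISAT2 2.1.0, Bowtie2, RSEM 1.3.1, DESeq2 1.4.5 and build R64, and FPKM values of this kind depend on the other genes of the library, since they are scaled to its total. The series describes 3 replicates a group, and 2 WT libraries were analysed here. Columns were matched to samples by their names.

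A filter removed genes whose mean was under 1 FPKM, which left 5727 of 5886. Mutants were tested against WT with log2(FPKM + 1) as the response, a scale that understates changes of low genes, in limma 3.58.1 (R 4.3.3), using moderated variances with trend and robust estimation, two-sided, and Benjamini-Hochberg adjustment over all genes tested. Differences between mutants and the F test came from 1 fit over the 5 strains. Calls used the fold thresholds 1.5 and 0.7 with an unadjusted p under 0.05. The code was tested on simulated data. Depth was estimated from 39 genes of low FPKM whose values fell on whole-read steps, within a tolerance of 0.15 reads for 99.3% of 449 values.

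The genes named were the 9 signalling genes and, of the pathway list, paralogs and partners (TOR2, PDE1, IRA1, IRA2 and CDC25) and at most the 4 largest calls in each mutant whose 3 mutant values all lay on the same side of WT, the 3 genes most like CYR1 and TPK3, and the targeted genes. Members and lists were chosen with earlier results of these data known. Coordinates, coding lengths and sequences are from RefSeq R64, and 97.2% of the genes tested had a length. The alternatives were another pseudocount (0.1), median-ratio scaling, a filter at 10 FPKM or none, the replicate number as a block, 1 fit over 5 groups, calls on adjusted p, each library left out in turn and, added after seeing the data, removal of the trend on coding length. SDC25 was not analysed here, and 1 gene that the rule names is counted in the totals of the pathway list but not reported here.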

Additional observations from a re-analysis of the deposited data

How the results depend on the processing

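Of the counts of called genes, 88 kept within 1.5 times of the main value under the alternatives other than leaving out a library and 24 did not. The number of the 9 genes called against WT was 1 in MSB3Δ with a pseudocount of 0.1 (TPK2, 0.59). Median-ratio scaling gave 0 in NIT3Δ (TPK2, 0.57) and 1 in HSP26Δ (RAS1, -0.58), 0 between MSB3Δ and HSP26Δ, and 1 pathway gene each in MSB3Δ and TYS1 DAmP, and it reversed RAS1 (-0.056), PDE2 (-0.064) and SCH9 (-0.013) in MSB3Δ and PDE2 in NIT3Δ (-0.19) and HSP26Δ (-0.010). Removing the trend on coding length, an alternative chosen after seeing the data, gave 0 between MSB3Δ and HSP26Δ and 4 and 1 pathway genes in HSP26Δ and TYS1 DAmP, and it reversed RAS1 (-0.058) and PDE2 (-0.049) in MSB3Δ, PDE2 in NIT3Δ (-0.18) and HSP26Δ (-0.030), and SCH9 in HSP26Δ (-0.0016) and TYS1 DAmP (-0.015). One fit over the 5 groups gave 2 of the 9 genes in NIT3Δ (TPK2 and CYR1, 0.88) and 14, 2 and 0 pathway genes in NIT3Δ, HSP26Δ and TYS1 DAmP. At an adjusted p under 0.05 the counts were 0 for the 9 genes in NIT3Δ and between MSB3Δ and HSP26Δ and 0 for the pathway genes in all 4 mutants. No filter and a minimum of 10 FPKM moved none of the counts past 1.5 times. The share of all genes called is not given here for the pseudocount of 0.1 or for the 1 fit over 5 groups. The cause of these moves was not tested.

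The replicate numbers were not taken to pair libraries: of 26 pairs of libraries with the same number in different strains, 11 had deviations from their strain means that correlated above 0.1, from -0.77 to 0.44. With the replicate block, 1 of the 9 genes was called in MSB3Δ (TPK2, 0.66) and 2 in NIT3Δ (CYR1, 1.15). Of the pathway genes, 12, 9 and 7 were called in MSB3Δ, NIT3Δ and TYS1 DAmP. The share of all genes called with the block is not given here. The block reversed TPK3 in MSB3Δ (0.024) and NIT3Δ (0.022) and PDE2 (0.24), TOR1 (0.090) and SCH9 (-0.064) in TYS1 DAmP.

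With each library left out in turn, the number of the 9 genes called against WT ranged from 0 to 2 in MSB3Δ and HSP26Δ and from 0 to 1 in NIT3Δ and TYS1 DAmP, and that between mutants from 0 to 1 for MSB3Δ against HSP26Δ and against TYS1 DAmP and from 0 to 2 for NIT3Δ against TYS1 DAmP. Pathway counts ranged from 1 to 12 in MSB3Δ, 1 to 7 in NIT3Δ, 2 to 15 in HSP26Δ and 0 to 6 in TYS1 DAmP. Reversals occurred for PDE2 in HSP26Δ (-0.11 to 0.22), MSB3Δ (-0.18 to 0.40) and TYS1 DAmP (-0.19 to 0.24), TPK3 in MSB3Δ (-0.17 to 0.024) and NIT3Δ (-0.14 to 0.022), RAS1 in NIT3Δ (-0.19 to 0.0068), and TOR1 (-0.064 to 0.090) and SCH9 (-0.074 to 0.30) in TYS1 DAmP. The counts with a library left out were not set beside the share of all genes called in the same fits. Where WT is left with 1 library, the fit assumes that it varies like the mutant libraries. Counting error was at most 3.57% of a value at the estimated depth, and the 2 WT libraries limit the precision of each comparison.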

Other observations

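The role groups around TOR were described by position as well as by calls. Of the 15 genes upstream of TOR complex 1, which include the Gtr GTPases and the SEA complex that signal amino acid supply, 11 had all 3 NIT3Δ libraries above both WT libraries, beside 7 in HSP26Δ, 6 in MSB3Δ and 4 in TYS1 DAmP, where 38.6%, 27.6%, 26.1% and 20.4% of all genes did. Their median log2 fold changes were 0.32, 0.18, 0.19 and 0.14. Of the 11 genes downstream of TOR complex 1, such as the phosphatase partner TAP42 and the kinase NPR1, 9 had all 3 libraries above both WT libraries in NIT3Δ, 6 in HSP26Δ, 4 in TYS1 DAmP and 3 in MSB3Δ, with medians of 0.39 in NIT3Δ, 0.29 in MSB3Δ, 0.19 in HSP26Δ and 0.19 in TYS1 DAmP. The 9 genes of TOR complex 2 and its effectors had medians of 0.41, 0.26, 0.25 and 0.15 in NIT3Δ, HSP26Δ, MSB3Δ and TYS1 DAmP, and none of these genes was called. Without NIT3Δ replicate 2 the NIT3Δ medians of the upstream, downstream and TOR complex 2 groups were 0.16, 0.24 and 0.27.

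In NIT3Δ replicate 2 the paralogs and partners did not all differ from the other NIT3Δ libraries by the same factor. IRA1, PDE1 and IRA2 were 2.52, 2.26 and 1.97 times the mean of the other 2 NIT3Δ libraries, and CDC25 was 1.75 times, beside 3.06 for CYR1, 0.77 for RAS1 and 1.08 for PDE2. The ratio of PDE1 to PDE2 was 3.25 in that library and between 1.13 and 2.33 in the other 13.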
